A study of Homo sapiens with 6 samples.

Results

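The genes described here encode the actin cytoskeleton and the focal adhesions that anchor it: 38 listed genes, covering actin isoforms, filament crosslinkers, non-muscle myosin II, tropomyosins, calponin-family proteins, adhesion plaque proteins, 2 regulators of filament turnover and the RhoA pathway. They were taken by gene name from the authors' table of normalized counts, which holds 23030 genes. Of the 38 listed genes, 37 were in the table, and MYL9, the regulatory light chain of smooth muscle, was not. The tests covered 34 of them, because ACTA2, TAGLN, CNN1 and MYL9 lay under the minimum of 10 CPM (counts scaled to a common library total) that 9697 genes passed.

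The libraries came from T98G, an established human glioblastoma line, infected in suspension with a lentivirus that expressed a short hairpin RNA. Cells of the shControl group received a control hairpin and cells of the shDYRK1A group a hairpin against DYRK1A, a protein kinase of the CMGC group that is also found on chromatin. Both groups were selected with puromycin, recovered without it, and were mixed by cell number with a constant amount of Drosophila Kc167 cells before RNA extraction. Each group held 3 libraries, named 1A, 1B and 1C. The labels do not say whether these came from separate infections, so the p-values measure the spread between these 6 libraries only, and the knockdown rests on the hairpin that the shDYRK1A label names.

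Actin filaments are polymers that cells build and take apart continuously, and crosslinkers, tropomyosins and myosin II turn them into bundles and contractile stress fibres. Integrins hold the ends of these fibres to the extracellular matrix through layered plaques in which talin, kindlin, vinculin, paxillin and the ILK, PINCH and parvin complex sit. The GTPase RhoA and its ROCK kinases drive myosin contraction, and many of the genes are classical targets of serum response factor (SRF), whose coactivators MRTF-A and MRTF-B leave actin monomers when filaments grow. In glioblastoma cells this machinery is known for its part in migration and invasion.

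Human gene counts per library ranged from 33708297 to 42154438. The authors' size factors from the fly cells ran 0.821, 0.881, 1.03 over shControl and 1.06, 1.08, 1.21 over shDYRK1A, so each human count is divided by a larger number in every shDYRK1A library, and the median log2 fold change of all 9697 tested genes was -0.40. Scaling by the trimmed mean of M-values (TMM), which sets the bulk of human genes equal between libraries, moved that median by 0.401, to near 0. Bulk counts cannot tell fewer human cells per fly cell from less RNA per cell. DYRK1A itself had normalized counts of 2227, 2234 and 1895 with the control hairpin and 1482, 1056 and 1285 with its own. Its log2 fold change was -0.73 ± 0.15 (SE; adjusted p = 5.33e-06) with spike-in scaling. Under TMM scaling the fall was smaller, at -0.34 ± 0.06 (SE; adjusted p = 0.000558). In CPM the gene had 46.3, 46.7 and 47.2 against 40.4, 33.8 and 38.6, without overlap. The glioma and mesenchymal markers VIM (54928 to 83244 raw counts), CD44 (51922 to 64361) and EGFR (4445 to 6337) were abundant in each library, whereas the astroglial markers GFAP and ALDH1L1 had at most 7 counts and S100B and AQP4 were at 0.

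In shDYRK1A cells, 26 of the 34 tested genes were lower with spike-in scaling (edgeR, adjusted p under 0.05), none was higher and 8 passed in neither direction. All 34 log2 fold changes were negative, with a median of -0.52. The share of members called lower, 76.47%, stands beside 63.4% called lower and 1.08% called higher over all tested genes. With every fold change negative, in edgeR and in DESeq2, none of the 34 could be called higher at any p. The fold threshold of 0.7 on the log2 scale was passed by 11 of the 34 (32.35%), all lower, and by 14.3% of all tested genes in that direction.

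The 11 genes past the fold threshold were the kindlin FERMT2, the filamins FLNC and FLNA, the PINCH protein LIMS1, the kinases ROCK1 and ROCK2, the tropomyosins TPM1 and TPM4, CNN3, ACTG1 and MYH10. They also passed it in all 6 fits made without 1 library. Under TMM scaling, where 28.8% of all tested genes were lower and 27.1% higher, 17 of the 34 genes (50%) were lower and 8 (23.53%) higher, with a median of -0.12. Lower at both scalings were these 11 with TAGLN2, CNN2, ZYX, PXN, PTK2 and RHOA, and 16 of the 17, all but PTK2, stayed lower at both in every fit without 1 library. The 8 genes higher under TMM scaling, MYL6, MYL12A, MYL12B, VCL, TLN1, ILK, CFL1 and PFN1, were those that passed in neither direction with spike-in scaling, and their log2 fold changes turned from negative to positive. Without shControl 1A, 1B or 1C the number of members called higher under TMM scaling was 3, 3 and 2.

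**Figure D1:**
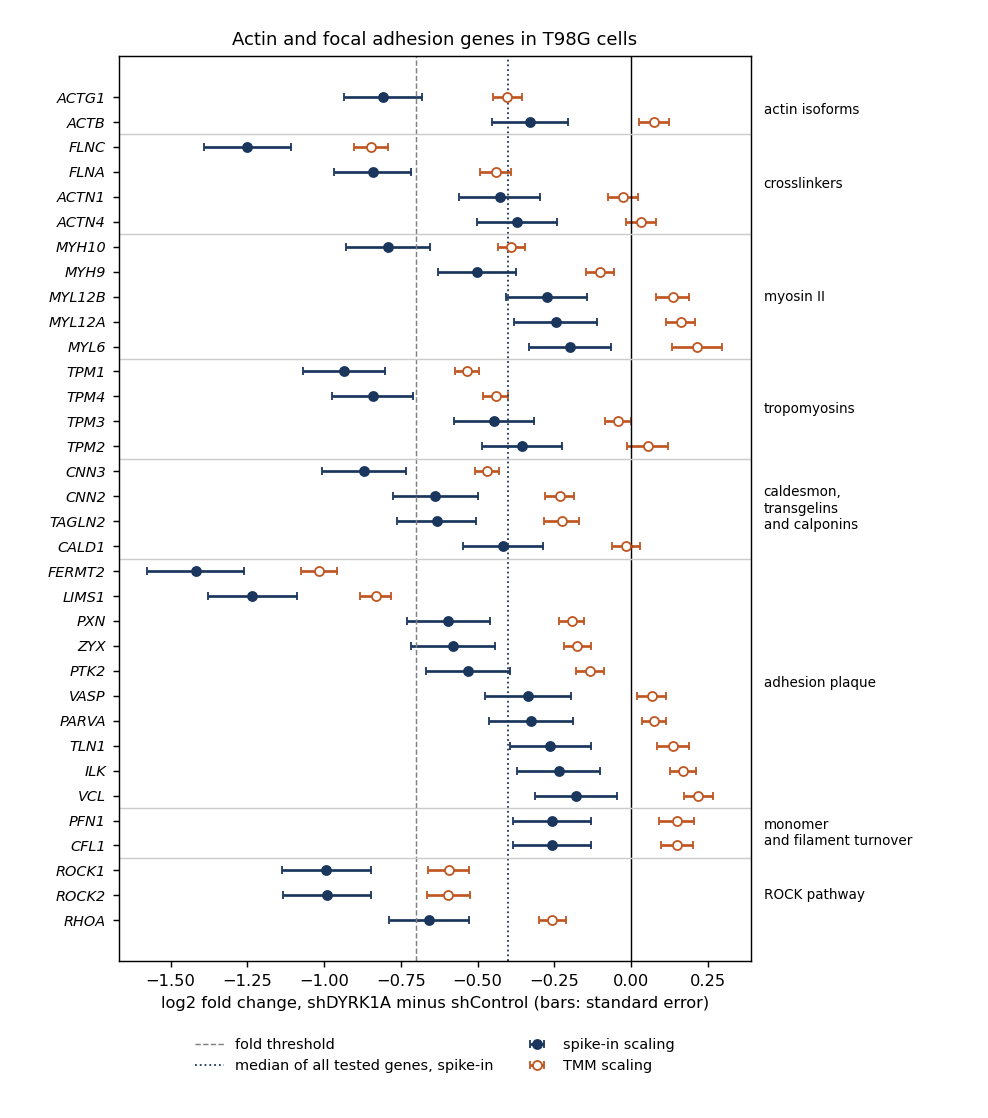
Log2 fold change of shDYRK1A minus shControl (x axis) for the 34 tested genes, grouped by role, with spike-in scaling (filled points) and TMM scaling (open points). Bars are standard errors from the edgeR fit over 3 libraries a group, the dashed line is the fold threshold of -0.7 and the dotted line the median of all tested genes, -0.40. All filled points lie below 0, and FERMT2, FLNC and LIMS1 lie lowest at either scaling.

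Single libraries decided part of the count. Within shControl, library 1C had the lowest normalized count of the 3 for all 34 genes, and within shDYRK1A library 1B was lowest for 28 of 34. Both libraries also had the lowest total of human gene counts per size factor in their group. For shControl 1C that total was 40116360, beside 48090252 for 1A and 47835662 for 1B. For shDYRK1A 1B it was 31230657, beside 36658657 for 1A and 33310112 for 1C. The order is thus not particular to these genes. In CPM, which uses no fly reads, shControl 1C was lowest for 7 genes and shDYRK1A 1B for 19. Without shControl 1C all 34 genes were called lower, without shControl 1B 19 were, and the other 4 fits gave 21 to 26. The 7 genes that lost their call in at least 1 of these fits were ACTB, ACTN1, ACTN4, TPM2, CALD1, PARVA and VASP. The shControl and shDYRK1A libraries did not overlap in normalized count for 27 of the 34 genes, against 63.6% of all tested genes, and in CPM they were apart with shDYRK1A lower for 17 genes and higher for 11, against 29.3% and 33.5% of all tested genes.

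**Figure D2:**
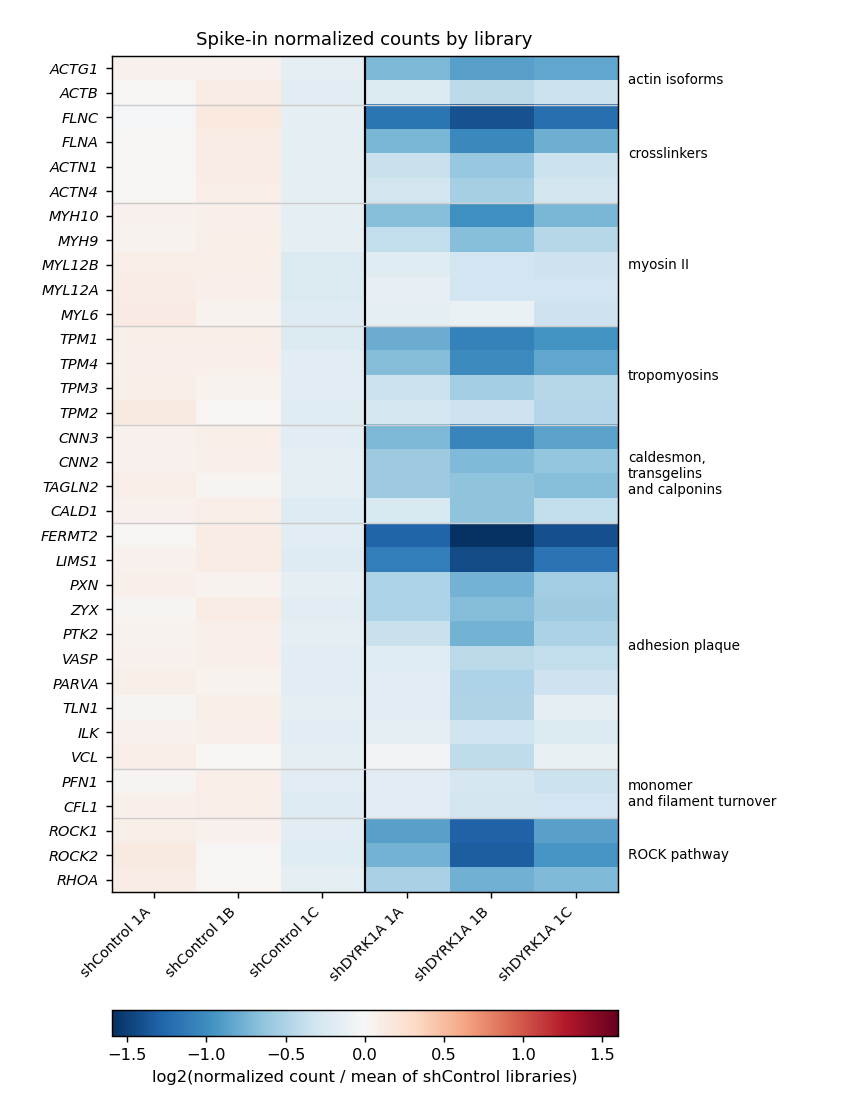
Spike-in normalized count of each tested gene (rows, grouped by role) in each library (columns), as the log2 ratio to the mean of the 3 shControl libraries (blue below it, red above it). The shControl 1C column is pale blue in all 34 rows, and the FERMT2, LIMS1, FLNC, ROCK1 and ROCK2 rows are the darkest in shDYRK1A.

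Promoters were read for the binding letters of SRF, since SRF targets are many among these genes. RefSeq promoter windows (GRCh38.p14, 250 bases before to 50 after each listed start, with several starts for some genes) were found for 33 of the 38 genes, 57 windows in all. ACTB, MYL9, TAGLN, PTK2 and PARVA had no window, so their promoters were not read. A CArG box, the palindromic SRF element whose match reads alike on both strands, was present in 6 of the 57 windows (10.5%), 1 each for ROCK2, ACTN1, ACTG1, CNN2, TPM4 and FLNA. ACTN1 has 4 windows, TPM4 3 and ROCK2 2, and the box of each lies in only 1 of them. Which start these cells use was not tested. Of the 35116 windows of all genes 454 (1.29%) held one. The stretches around the 6 boxes are shown because these genes carry the match, with the box in capitals, in the direction of the gene:

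ACTG1, chr17:81512859-81512918, minus strand: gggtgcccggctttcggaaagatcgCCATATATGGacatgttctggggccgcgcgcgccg

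FLNA, chrX:154374694-154374753, minus strand: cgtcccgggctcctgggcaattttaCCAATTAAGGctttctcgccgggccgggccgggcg

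TPM4, chr19:16067340-16067399, plus strand: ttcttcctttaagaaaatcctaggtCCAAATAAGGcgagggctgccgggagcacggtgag

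ROCK2, chr2:11345476-11345535, minus strand: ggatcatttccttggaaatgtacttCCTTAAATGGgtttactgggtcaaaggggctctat

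CNN2, chr19:1026494-1026553, plus strand: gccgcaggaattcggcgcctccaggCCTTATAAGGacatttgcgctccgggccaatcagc

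ACTN1, chr14:68977703-68977762, minus strand: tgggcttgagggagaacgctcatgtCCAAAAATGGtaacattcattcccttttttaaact

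The boxes begin between 73 and 173 bases upstream of the start site of their window. All 6 genes with a box were lower with spike-in scaling, 4 past the fold threshold and 5 at both scalings, ACTN1 being the exception. Over all tested genes 63.4% were lower with spike-in scaling, 14.3% past the fold threshold and 28.8% at both scalings, and over the 122 tested genes with a box in any window these shares were 67.2%, 17.2% and 30.3%. Among the 25 tested genes with a window but no box, 17 were lower with spike-in scaling, 7 past the fold threshold and 11 at both scalings. The palindrome TCTCGCGAGA, a motif associated with DYRK1A on chromatin, was in none of the 57 windows and in 149 of all 35116 (0.424%), with both strands read at once because it is its own complement. A match is a run of letters in a window and was not tested as a binding site.

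Both cytoplasmic actins fell with spike-in scaling, ACTG1 further than ACTB. The γ-actin gene ACTG1 (ENSG00000184009, chr17:81509971-81523847, minus strand) had normalized counts of 67279, 67619 and 58110.1 in the control libraries, in the order 1A, 1B, 1C kept throughout, against 39089, 35080.0 and 36087 after knockdown. The groups were far apart, and the log2 fold change was -0.81 ± 0.13 (SE; adjusted p = 3.86e-09), or 57.1% of shControl. For the β-actin gene ACTB (ENSG00000075624, chr7:5527147-5563784, minus strand) the counts were 127732, 135830.0 and 111342 against 106671, 93408 and 98305. The lowest shControl library stood just above the highest of shDYRK1A, and the difference of -0.33 ± 0.12 (SE; adjusted p = 0.0141) turned to 0.07 ± 0.05 under TMM scaling. ACTB also lost its call without shControl 1A or 1B or without shDYRK1A 1B or 1C, where it lay between -0.32 and -0.27. The smooth muscle actin gene ACTA2, which marks myofibroblasts, was low, with 286, 346 and 292 against 307, 303 and 266, and its groups overlapped. Genes on the opposite strand cover 30.1% of its exonic bases, and whether the counting used strand is not given in the sources used here. Both cytoplasmic actin genes have many processed copies in the annotation, 20 named pseudogenes for ACTG1 and 10 for ACTB, and how the counting divided reads between gene and copies is not given in the sources used here.

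The 4 crosslinkers were all lower with spike-in scaling, as were 63.4% of all tested genes, and filamins fell more than α-actinins. Filamin C, FLNC (ENSG00000128591, chr7:128830377-128859274, plus strand), the isoform best known from striated muscle, had 5767, 6561 and 5291 normalized counts in shControl and 2623, 2230.1 and 2556 in shDYRK1A. Every shDYRK1A library held less than the lowest shControl library by a wide margin, with a log2 fold change of -1.25 ± 0.14 (SE; adjusted p = 6.96e-17) (TMM -0.85 ± 0.06). Filamin A, FLNA (ENSG00000196924, chrX:154348524-154374638, minus strand), which ties filaments into orthogonal networks and binds integrin tails, went from 93422, 99822 and 82825 to 55325, 44992 and 53746, a log2 fold change of -0.84 ± 0.13 (SE; adjusted p = 5.35e-10) that was -0.44 ± 0.05 under TMM scaling. The α-actinins bundle antiparallel filaments. ACTN1 had 10461, 11183 and 9225 against 8052, 6759 and 8119.9. ACTN4 had 21342, 22417 and 18753 against 17031, 14390.4 and 16932. Their groups did not overlap, and their log2 fold changes of -0.43 ± 0.13 (SE; adjusted p = 0.00317) and -0.37 ± 0.13 (SE; adjusted p = 0.0091) became -0.03 and 0.03 under TMM scaling, neither called. The call was lost without shControl 1B for both (-0.36 for ACTN1 and -0.31 for ACTN4), and for ACTN4 also without shControl 1A (-0.35) or shDYRK1A 1B (-0.30).

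Within myosin II, the motor that pulls on actin filaments, the heavy chains were lower and the light chains passed in neither direction with spike-in scaling. MYH10 (ENSG00000133026, chr17:8474205-8630761, minus strand), the heavy chain of myosin IIB, had 7668, 7722 and 6542 in shControl and 4571, 3695 and 4408 in shDYRK1A. Its groups were well separated, at a log2 fold change of -0.79 ± 0.14 (SE; adjusted p = 9.78e-08) (TMM -0.39 ± 0.04). MYH9, the heavy chain of myosin IIA, had 39811, 40908 and 34373 against 29212, 24015 and 27979, also without overlap. Its difference of -0.50 ± 0.13 (SE; adjusted p = 0.000307) was -0.10 ± 0.04 under TMM scaling (adjusted p = 0.0698), a value called lower without shDYRK1A 1B (-0.09) or 1C (-0.13).

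The essential light chain MYL6 had 12051, 11514 and 9519 against 9856, 10232 and 8733. These groups overlapped, since shDYRK1A 1A and 1B exceeded shControl 1C, and the log2 fold change was -0.20 ± 0.13 (SE; adjusted p = 0.171). The regulatory light chains MYL12A and MYL12B, neighbours on chromosome 18 that ROCK kinases phosphorylate, gave -0.25 ± 0.14 (SE; adjusted p = 0.097) and -0.28 ± 0.13 (SE; adjusted p = 0.0573). DESeq2 called MYL12B lower (adjusted p = 0.0335). In CPM the 3 light chains were higher in every shDYRK1A library, as with MYL6 at 251, 241 and 237 CPM in shControl and 269, 328 and 262 CPM in shDYRK1A, and under TMM scaling their log2 fold changes were 0.22 ± 0.08, 0.16 ± 0.05 and 0.13 ± 0.05. Without shControl 1C none of these 3 rises was called (0.20, 0.14 and 0.11), those of MYL6 and MYL12B were not called without shControl 1A or 1B either, and without shDYRK1A 1B these 2 genes were at 0.09 and 0.08. MYL9 had 1 raw count in each 1A library and 0 in the other 4, where 0 allows up to 3 counts.

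Tropomyosins coil along the filament and decide which myosins and severing proteins reach it. All 4 tropomyosin genes were lower with spike-in scaling, as were 63.4% of all tested genes. TPM1 and TPM4 were also lower under TMM scaling, as were 28.8% of all tested genes. TPM1 (ENSG00000140416, chr15:63042632-63071915, plus strand) had 14139, 14277 and 11472 normalized counts in shControl and 7681, 6284 and 6871 in shDYRK1A. That is 52.2% of shControl, a log2 fold change of -0.94 ± 0.13 (SE; adjusted p = 8.88e-11) (TMM -0.53 ± 0.04), and no library of one group reached the other. Genes on the opposite strand cover 21.4% of the exonic bases of TPM1. TPM4 (ENSG00000167460, chr19:16067021-16103005, plus strand) fell alongside, from 24196, 24349 and 20278 to 14161, 11311 and 12924, with -0.84 ± 0.13 (SE; adjusted p = 3.09e-09) (TMM -0.44 ± 0.04). TPM3 had 25108, 24486 and 20913 against 18484, 16084 and 17165. TPM2 had 24888, 23107 and 19744 against 18685, 17928 and 16325. Both pairs of groups stayed apart in normalized counts. Their log2 fold changes were -0.45 ± 0.13 (SE; adjusted p = 0.00162) and -0.36 ± 0.13 (SE; adjusted p = 0.012), while under TMM scaling TPM3 was at -0.04 and TPM2 had turned to 0.05. TPM2 lost its call without shControl 1A or 1B or shDYRK1A 1C, at -0.34 to -0.28.

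Caldesmon, transgelins and calponins bind along actin and hold back myosin in smooth muscle. In T98G the non-muscle genes of the transgelins and calponins carried nearly all the counts of these families. CNN3 (ENSG00000117519, chr1:94896949-94927278, minus strand), the acidic calponin, had 8866, 9051 and 7446 in shControl and 5154, 4067 and 4655 in shDYRK1A. It fell by 0.87 ± 0.14 (SE; adjusted p = 3.3e-09), to 54.7% of shControl, and by 0.47 under TMM scaling. CNN2 went from 5751, 5824 and 4921 to 3679.7, 3372 and 3546 (log2 fold change -0.64 ± 0.14 (SE; adjusted p = 2.32e-05)), with 11 named pseudogenes in the annotation. TAGLN2 was among the 5 most abundant of the genes per kilobase and had 38101, 36502 and 31738 against 23791, 22706 and 22037, with -0.63 ± 0.13 (SE; adjusted p = 6.27e-06). CNN2 and TAGLN2 were lower at both scalings and without overlap in normalized count or CPM. CALD1, which encodes caldesmon, had a log2 fold change of -0.42 ± 0.13 (SE; adjusted p = 0.00356) that was -0.02 under TMM scaling and lost its call without shControl 1B (-0.36) or shDYRK1A 1B (-0.32). The smooth muscle isoforms were scarce: TAGLN had 264, 245 and 226 against 196, 211 and 180.4 normalized counts, with shDYRK1A below shControl in each library, and CNN1 had at most 5 raw counts in any library. Of 6 further smooth muscle markers, MYH11, ACTG2 and LMOD1 had at most 20 raw counts in any library, DES 19 to 46 and SYNPO2 51 to 87. Smoothelin, SMTN, was the only one of the 6 abundant enough to test, with 1420 to 1754 raw counts and a log2 fold change of -0.31 ± 0.15 (SE; adjusted p = 0.0522, and 0.0261 with DESeq2).

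Of the 10 adhesion plaque genes, 7 (70%) were lower with spike-in scaling, 2 (20% of the 10) past the fold threshold, and 3 passed in neither direction. Over all tested genes 63.4% were lower and 14.3% lower past the fold threshold. The lowest of all tested members was FERMT2 (ENSG00000073712, chr14:52857268-52952435, minus strand), which encodes kindlin-2, an integrin activator that binds the β-integrin tail beside talin. Its normalized counts of 1355, 1443 and 1186 in shControl compare with 544, 446 and 500.0 in shDYRK1A. The highest shDYRK1A library lay far below the lowest shControl library. The log2 fold change was -1.42 ± 0.16 (SE; adjusted p = 3.35e-17) (TMM -1.02 ± 0.06), or 37.4% of shControl. LIMS1 (ENSG00000169756, chr2:108534355-108687246, plus strand), which encodes PINCH-1, the adaptor that holds ILK in its ternary complex, had 3074, 3159 and 2532 against 1356, 1086 and 1283. It stood at 42.5% of shControl, with -1.23 ± 0.15 (SE; adjusted p = 2.56e-15) (TMM -0.83 ± 0.05). The partners of LIMS1 in that complex had smaller fold changes. ILK had 6999, 7068 and 5898 against 5972, 5316 and 5664 and a log2 fold change of -0.24 ± 0.14 (SE; adjusted p = 0.11), turning to 0.17 ± 0.04 under TMM scaling, and genes on the opposite strand cover 78.5% of its exonic bases. PARVA, the α-parvin gene, was at -0.33 ± 0.14 (SE; adjusted p = 0.0296) with spike-in scaling and 0.07 under TMM scaling.

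Among the other plaque genes, PXN, the gene of the scaffold paxillin, gave -0.60 ± 0.13 (SE; adjusted p = 5.45e-05) and ZYX, the gene of the tension-sensing LIM protein zyxin, -0.58 ± 0.14 (SE; adjusted p = 0.000112). PTK2, which encodes focal adhesion kinase, gave -0.53 ± 0.14 (SE; adjusted p = 0.000341). All 3 were lower at both scalings, but for PTK2 the TMM call (-0.14) was lost without shControl 1B (-0.14, adjusted p = 0.0598) or shControl 1C (-0.12, adjusted p = 0.0998). VASP, which speeds filament elongation, was at -0.34 ± 0.14 (SE; adjusted p = 0.0285) and at 0.07 under TMM scaling. PARVA and VASP each lost the spike-in call without shControl 1A or 1B or shDYRK1A 1B or 1C, at log2 fold changes of -0.32 to -0.25 and -0.30 to -0.29, and also when no filter beyond 1 count was applied. Vinculin, which reinforces the talin link under load, had the smallest fold change: VCL had 8322, 7929.8 and 6993 against 7514, 5842 and 7165 normalized counts, overlapping, with -0.18 ± 0.13 (SE; adjusted p = 0.222). In CPM all 3 shDYRK1A libraries of VCL, at 205, 187 and 215, were above the 3 of shControl, at 173, 166 and 174, and the TMM fold change was 0.22 ± 0.05. TLN1, the talin gene, gave -0.26 ± 0.13 (SE; adjusted p = 0.0667; DESeq2 adjusted p = 0.0454) and, turned, 0.14 ± 0.05 under TMM scaling, where its call was lost without any 1 of the shControl libraries (0.12 to 0.15) or shDYRK1A 1C (0.08). VCL and ILK were the members whose TMM rise was called in every fit without 1 library.

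The 3′ UTRs of FERMT2, LIMS1, CNN3 and PARVA hold the word TGAAGTA, a word first picked from the fold changes of all genes in these libraries, so its values here are a description only. Each copy is shown with 10 bases on either side, in the direction of the transcript (GRCh38, GENCODE v29), with the word in capitals and its own position:

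FERMT2, chr14:52857689-52857695, minus strand: cattacaataTGAAGTAaagttctatg

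FERMT2, chr14:52857674-52857680, minus strand: taaagttctaTGAAGTAtgcattttgt

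LIMS1, chr2:108684738-108684744, plus strand: tattggaaaaTGAAGTAtttttaatgt

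CNN3, chr1:94897506-94897512, minus strand: aactcgcataTGAAGTAaaaaggaata

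PARVA, chr11:12529994-12530000, plus strand: tgaagcaggaTGAAGTAagaggaatgc

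FERMT2 has 2 copies within 15 bases of each other, and the others 1. The median log2 fold change was -1.05 over these 4 genes and -0.47 over the 30 without the word, with median 3′ UTR lengths of 2178 and 905 bases. Over all tested genes with a 3′ UTR, 1373 of 9307 (14.75%) hold the word, at a median of -0.56 against -0.38 for the rest. PARVA, with the longest 3′ UTR of the 34, was at -0.33. The shorter core TGAAGT occurs in 14 of the 34 genes (median -0.84 against -0.35 in the other 20) and in 42.54% of all genes (-0.49 against -0.35). Genes with longer 3′ UTRs had lower fold changes among the members (Spearman's rank correlation -0.35 over 34 genes, whose counts come from the same libraries) and over all tested genes (-0.21 over 9307 genes), and UTR length and word were not separated here.

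**Figure D3:**
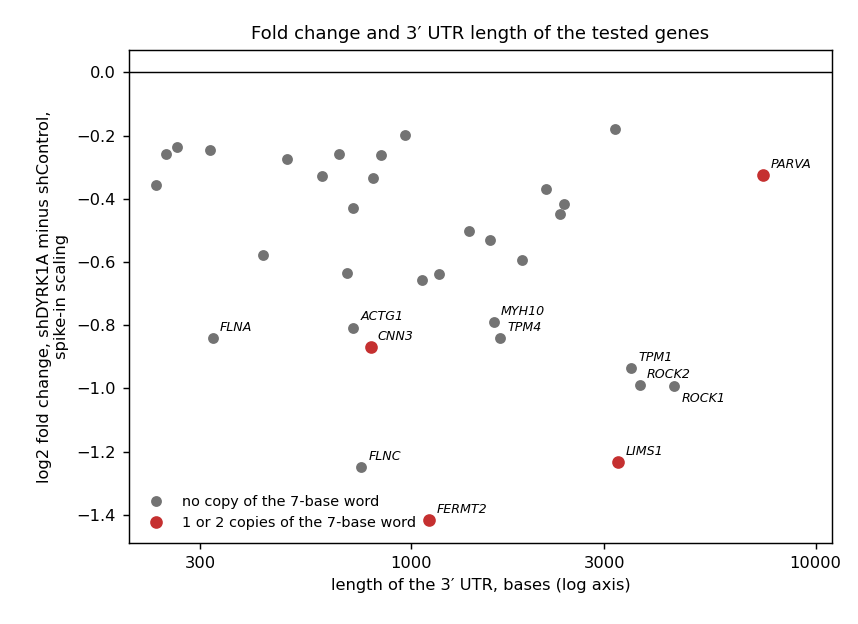
Log2 fold change with spike-in scaling (y axis) against 3′ UTR length in bases (x axis, log) for the 34 tested genes, with the 4 genes whose 3′ UTR holds the 7-base word in red and names for those and for genes past the fold threshold. FERMT2, LIMS1 and CNN3 lie low and PARVA, at -0.33, lies high with the longest 3′ UTR.

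The 2 genes of monomer and filament turnover were not called with spike-in scaling by edgeR, but both were called lower by DESeq2 (adjusted p = 0.0366 for CFL1 and 0.033 for PFN1) and with a replicate block in edgeR (0.0408 and 0.0418). CFL1 encodes cofilin, which severs filaments, and had 55027, 55927 and 45303 against 46104, 42398 and 42189.8 normalized counts. PFN1 encodes profilin, which feeds monomers to growing ends, and had 43088, 44988 and 36874 against 37023, 34501 and 32886. In both genes shControl 1C lay among the shDYRK1A values, so the groups overlapped. The log2 fold changes were -0.26 ± 0.13 (SE; adjusted p = 0.0608) and -0.26 ± 0.13 (SE; adjusted p = 0.0611), they turned to 0.15 ± 0.05 and 0.15 ± 0.06 under TMM scaling, and neither TMM rise was called without any 1 of the shControl libraries (0.13 to 0.17) or, for PFN1, shDYRK1A 1B (0.08). In CPM all shDYRK1A libraries lay above all shControl libraries, as for CFL1 at 1258, 1358 and 1267 against 1144, 1169 and 1129. Named pseudogenes number 8 for CFL1 and 10 for PFN1, and genes on the opposite strand cover 19% of the CFL1 exons.

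The genes ROCK1, ROCK2 and RHOA were lower at both scalings, as were 28.8% of all tested genes. The kinase genes ROCK1 (ENSG00000067900, chr18:20946906-21111851, minus strand) and ROCK2 (ENSG00000134318, chr2:11179761-11348330, minus strand), whose products phosphorylate myosin light chain and its phosphatase, gave close values. ROCK1 had 2866, 2805 and 2379 normalized counts in shControl and 1471, 1097 and 1475 in shDYRK1A. For ROCK2 the counts were 3325, 3046 and 2626 and 1774, 1197 and 1555. Library 1B was the lowest of the shDYRK1A libraries for both, and neither gene overlapped between groups. Their log2 fold changes were -0.99 ± 0.15 (SE; adjusted p = 2.57e-10) and -0.99 ± 0.14 (SE; adjusted p = 2.21e-10), or 50.2% and 50.3% of shControl, and -0.59 ± 0.07 and -0.60 ± 0.07 under TMM scaling. RHOA, the GTPase above them, was at -0.66 ± 0.13 (SE; adjusted p = 4.19e-06) and -0.26 ± 0.04, and its normalized counts ran from 18996 to 23025 in shControl and from 12510 to 14772 in shDYRK1A.

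Ratios of related genes inside 1 library use no scaling factor, and so address directly whether isoforms moved unequally. Of 14 listed pairs, 12 had at least 10 counts for both genes in every library, and in 10 of the 12 the shControl and shDYRK1A ratios did not overlap. Among all pairs that can be formed from the tested genes with that minimum, 63.8% did not overlap. For 3 libraries against 3 the smallest two-sided exact permutation p is 0.1, which these 10 pairs reached (0.12 after Benjamini-Hochberg adjustment over 12 pairs), so none can pass 0.05. ACTB counts were 1.90, 2.01 and 1.92 times those of ACTG1 in shControl and 2.73, 2.66 and 2.72 times in shDYRK1A, a log2 difference of 0.48. These are ratios of counts and not of molecules, since the genes differ in exon length.

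The FLNC to FLNA log2 ratio went from -3.97 ± 0.05 (SD, n = 3) to -4.38 ± 0.04, MYH10 to MYH9 from -2.39 ± 0.01 to -2.68 ± 0.02, and TPM1 to TPM2 from -0.76 ± 0.06 to -1.35 ± 0.14. In each of these pairs the isoform with the larger fall was the less abundant by count. The TPM3 to TPM4 ratio rose from 0.04 ± 0.02 to 0.43 ± 0.07, TPM4 being the one that fell further from nearly equal counts. CNN3 to CNN2 went from 0.62 ± 0.02 to 0.38 ± 0.11, and here the more abundant gene, CNN3, fell further. The scarce muscle isoforms rose against their partners, TAGLN to TAGLN2 by 0.31 and ACTA2 to ACTB by 0.25. TPM1 to TPM4 and ACTN1 to ACTN4 shifted by -0.09 and -0.06. ROCK1 to ROCK2 did not separate (difference 0.001, exact permutation p = 1) and neither did MYL12A to MYL12B (0.03, exact permutation p = 0.3).

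**Figure D4:**
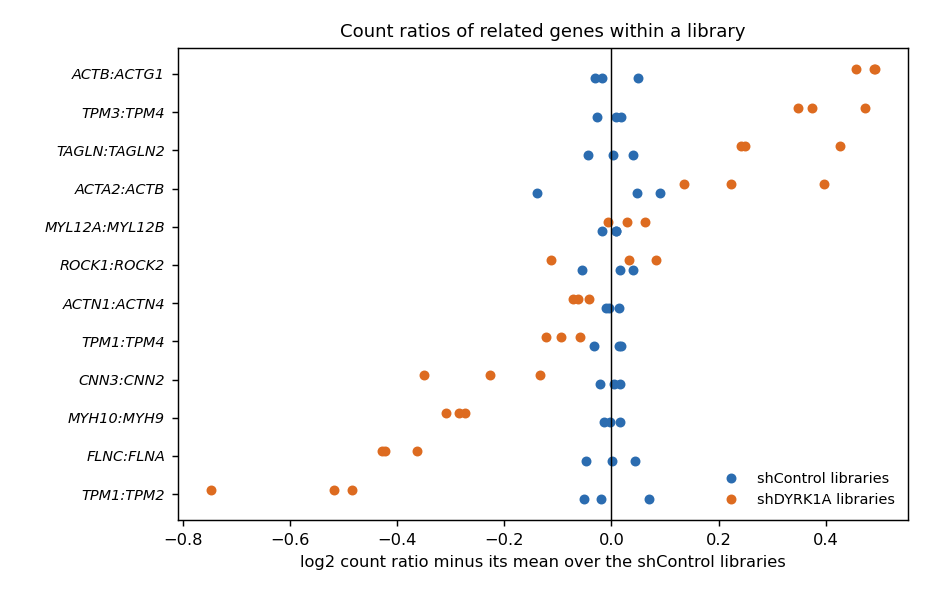
Log2 count ratio of 2 related genes in each library, minus the mean of that ratio over the 3 shControl libraries (x axis), for the 12 pairs tested. Blue points are shControl and orange points shDYRK1A libraries. The groups are apart for 10 of 12 pairs, against 63.8% of all pairs of tested genes, with TPM1:TPM2 lowest and ACTB:ACTG1 highest, and mixed for MYL12A:MYL12B and ROCK1:ROCK2.

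Per kilobase of exon, the mean normalized count in shControl was 35512 ± 3545 (SD, n = 3) for ACTB, 21496 ± 1802 for ACTG1, 20961 ± 2136 for PFN1, 14253 ± 1331 for TAGLN2 and 8884 ± 1005 for CFL1. ACTG1 and PFN1 lay within their spread in shControl. In shDYRK1A, where ACTG1 had 12279 ± 697 and PFN1 17515 ± 1049, they did not. FERMT2 was the least abundant of the tested genes, at 156 ± 15.4 in shControl and 58.4 ± 5.81 in shDYRK1A.

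**Figure D5:**
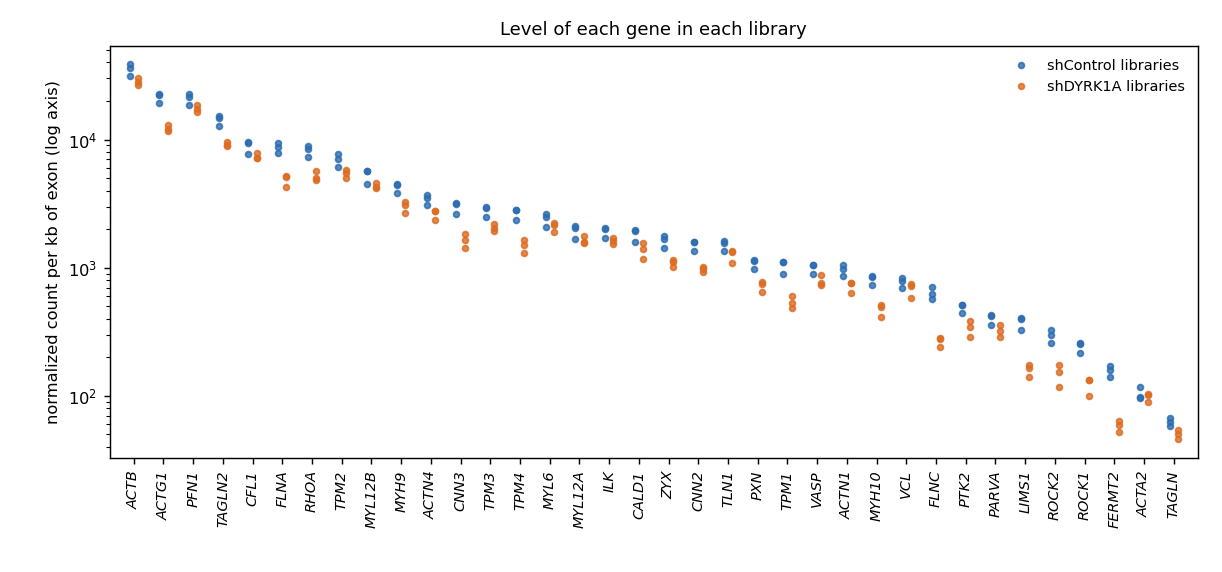
Normalized count per kilobase of exon (y axis, log) in each library for the 36 listed genes other than MYL9 and CNN1, ordered by the shControl mean, with 3 shControl (blue) and 3 shDYRK1A (orange) points a gene. ACTB is highest at 35512 in shControl, FERMT2 is the lowest tested gene, and TAGLN and ACTA2, which were not tested, lie below it in shControl, whereas in shDYRK1A ACTA2 (98.1) lies above FERMT2 (58.4).

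The 37 listed genes other than MYL9 together took 1.575% (1.571 to 1.579), 1.618% (1.614 to 1.621) and 1.609% (1.605 to 1.613) of human gene counts in the shControl libraries. In shDYRK1A the shares were 1.493% (1.489 to 1.496), 1.524% (1.520 to 1.528) and 1.525% (1.522 to 1.529). The intervals are 95% Wilson intervals and cover counting error only. The means were 1.601% ± 0.0224 and 1.514% ± 0.0184 (SD, n = 3), with every shDYRK1A library below every shControl library and a difference of -0.0866 percentage points. The sum is mostly set by the few most abundant genes, and it was not tested because the genes were listed with results known.

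Of 109 further genes of the same machinery, listed by role, 102 were tested, and 71 (69.61%) were lower with spike-in scaling, 15 past the fold threshold, against 63.4% and 14.3% of all tested genes. None was higher with edgeR or DESeq2, with or without adjustment, and 99 of the 102 log2 fold changes with spike-in scaling were negative. Their median log2 fold change was -0.44, against -0.40 over all tested genes. Under TMM scaling 35 (34.31%) were lower and 21 (20.59%) higher, against 28.8% and 27.1% of all tested genes, and 2 were lower past the fold threshold. The lowest was RHOB (-1.38 ± 0.16), the short-lived relative of RhoA on endosomes. PPP1CB (-0.70 ± 0.14), the catalytic subunit of myosin phosphatase, was also past the fold threshold. Both belong to the 17 tested small GTPases and myosin regulators, of which 11 (64.71%) were lower. In this list RHOC (-0.12 ± 0.14) and RAC1 (-0.23 ± 0.13) had no call with spike-in scaling. Under TMM scaling 7 of the 17 were lower and 5 higher, RHOC (0.28 ± 0.06) and RAC1 (0.17 ± 0.04) among the higher.

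Among 27 tested genes of other plaque proteins 17 (62.96%) were lower with spike-in scaling, against 63.4% of all tested genes. Under TMM scaling 11 of the 27 were lower and 4 higher. NEDD9 (-1.18 ± 0.17), a scaffold phosphorylated by focal adhesion kinase, KANK2 (-0.98 ± 0.14), TLN2 (-0.87 ± 0.16), the talin paralogue, FHL2 (-0.79 ± 0.15) and TNS2 (-0.74 ± 0.14) passed the fold threshold, and PDLIM5 was highest, without a call (-0.08 ± 0.15). Of 13 further bundlers and membrane linkers 10 (76.92%) were lower, with AHNAK (-1.01 ± 0.13), PALLD (-0.91 ± 0.14), PLS3 (-0.72 ± 0.13) and SPTBN1 (-0.71 ± 0.13) past the fold threshold. LIMA1 was highest, without a call with spike-in scaling (-0.24 ± 0.13). Under TMM scaling 7 of the 13 were lower and 3 higher.

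Turnover and capping genes were lower with spike-in scaling in 13 of 19 cases (68.42%), against 63.4% of all tested genes. WDR1 (-0.81 ± 0.13), the cofactor of cofilin, and DSTN (-0.78 ± 0.13), the gene of the cofilin relative destrin, passed the fold threshold while CFL1 was not called. SSH2, a cofilin phosphatase, had the highest value of the list, without a call with spike-in scaling (0.12 ± 0.14). Under TMM scaling SSH2 was called higher (0.52 ± 0.05), with 5 of the 19 genes higher and 4 lower. Of 8 Arp2/3 complex subunits 5 (62.5%) were lower, from ARPC5L (-0.75 ± 0.14) to ARPC4 (0.05 ± 0.14), which had no call with spike-in scaling. Under TMM scaling ARPC4 was called higher (0.45 ± 0.06), and 2 of the 8 subunits were lower and 2 higher. Formins and the WAVE and N-WASP proteins were lower in 14 of 15 cases (93.33%), DIAPH3 (-0.72 ± 0.15) past the fold threshold. BRK1 was highest, without a call with spike-in scaling (-0.14 ± 0.14). Under TMM scaling BRK1 was the 1 gene of this list called higher (0.27 ± 0.06), and 4 were lower. Of the 3 transcription factor genes behind the CArG box, MRTF-B (MKL2 in the table) was lower (-0.53 ± 0.14), and SRF (-0.29 ± 0.15) and MRTF-A (MKL1, -0.07 ± 0.15) had no call with spike-in scaling. Under TMM scaling none of these 3 genes was called lower and 1 was called higher.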

How the data were processed

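Messenger RNA libraries (TruSeq Stranded mRNA, paired-end) were aligned by the authors to hg38 and dm3, STAR and DESeq2 being named in the submitters' processing notes. The authors deposited raw gene counts for 58174 human genes per library and a table of normalized signal for 23030 genes, which is the raw count divided by 1 fly-derived constant per library. Another deposited table with the authors' own comparison (log2 fold change, standard error, statistic and p-values) was not used. Fly counts were not analysed here. Coordinates of 95.81% of table genes equal GENCODE v29 (GRCh38).

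The quasi-likelihood test of edgeR 4.0.16 in R 4.3.3, run robustly with those constants as scaling, was applied to the counts over genes with a mean normalized CPM above 10, and Benjamini-Hochberg adjustment over 9697 genes. A call is an adjusted p below 0.05, with fold a log2 change beyond 0.7. Standard errors are the fold change over the root of F. Alternatives were TMM, median of ratios, DESeq2 1.42.0, other filters, a replicate block and each library left out, and the last 2 under TMM scaling were chosen after seeing the data. Scripts were first tested on simulated counts. Libraries of 1 group differed beyond sampling noise (chi-square 4.76 to 19.9 per degree of freedom), so each counted once. The STAR summary lines (unmapped reads 8.44 to 15.65%) stayed out of all totals. Ratios were compared with exact permutation tests (scipy 1.17.1).

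Members, further genes, pairs, the 3′ UTR word and the promoter motifs were chosen with earlier results of these data known. Every member is named, with values per library for those past the fold threshold, the lowest and highest, the most abundant, those called higher, and pairs whose ratios separate. The 3′ UTR read was the longest of each gene in GENCODE v29, from 50 bases.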

Additional observations from a re-analysis of the deposited data

How the results depend on the processing

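Scaling decided most of what changed. Under TMM scaling and under the median of ratios, members called lower went from 26 to 17 and 17, members called higher from 0 to 8 and 8, and members lower past the fold threshold from 11 to 3 and 3. Over the 109 further genes the lower calls went from 71 to 35 and 34, the higher calls from 0 to 21 and 21, and the lower calls past the fold threshold from 15 to 2 and 2. The log2 fold changes that turned positive were, under TMM scaling and then under the median of ratios, 0.0746 and 0.08 for ACTB, 0.0312 and 0.0366 for ACTN4, 0.22 and 0.22 for MYL6, 0.16 and 0.17 for MYL12A, 0.13 and 0.14 for MYL12B, 0.054 and 0.0592 for TPM2, 0.22 and 0.22 for VCL, 0.14 and 0.14 for TLN1, 0.17 and 0.17 for ILK, 0.0742 and 0.0796 for PARVA, 0.0662 and 0.0716 for VASP, 0.15 and 0.16 for CFL1, and 0.15 and 0.15 for PFN1. These shifts follow from the scaling itself, which moves each gene by about the same amount. Members higher under TMM scaling numbered 2 to 8 in fits without 1 library, an alternative added after seeing the data. The ROCK1 to ROCK2 log2 ratio, 0.001 with all libraries, ran from -0.0397 to 0.0576 without 1 library. DESeq2 called 30 members lower, adding MYL12B, TLN1, CFL1 and PFN1, filterByExpr 26 and no filter beyond 1 count 24. The share of counts kept its sign in every fit, from -0.0992 to -0.0759 percentage points.

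The replicate letters were not taken as pairs in the main test, since the labels do not say whether equal letters mark a shared infection. The correlation of deviations from the group means was 0.151 for 1A, 0.0728 for 1B and 0.128 for 1C. Between different letters it ran from -0.0937 to -0.0143. Each library thus correlated best with its own letter, and these values do not exclude pairing. With the replicate block 28 members were lower, CFL1 and PFN1 being added (adjusted p = 0.0408 and 0.0418), 11 passed the fold threshold, and 17 were lower and 8 higher under TMM scaling. For the gene ratios a block of 3 pairs allows no exact p below 0.25. Depth limits the muscle isoforms, since MYL9 and CNN1 were at or near 0 and ACTA2 and TAGLN lay below the filter.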
